A study of Homo sapiens with 16 samples.

Results

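The 40 genes described here encode RNA polymerase II and the proteins that start it, phosphorylate it and keep it moving along a gene. They are the 12 polymerase subunits, 4 general initiation factors, 6 subunits of kinase complexes that act on the polymerase tail, and 18 elongation factors. Members were taken by symbol from a table of read counts for 60676 Ensembl genes. All 40 were found, and all 40 were among the 14912 genes with enough reads to be tested. The rule for members is a list of symbols and applies no measured value, but the list was drawn up with earlier results of these data known.

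RNA polymerase II transcribes the protein-coding genes of the nucleus. Its largest subunit carries a long repetitive C-terminal domain (CTD), and kinases that phosphorylate this domain mark the passage from initiation to pausing and then to productive elongation. After initiation the factors DSIF and NELF hold the enzyme near the promoter until the kinase P-TEFb releases it, and the PAF1 complex, SPT6, FACT, TFIIS, elongin and ELL then travel with it or help it past obstacles.

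The RNA came from HCT116, an established human colorectal carcinoma cell line. Cells carried an shRNA against NELFE, a subunit of NELF, or a control shRNA (shCTL), and each was given both compounds, EPZ-5676 alone, HMBA alone or the solvent DMSO. EPZ-5676, or pinometostat, inhibits the histone methyltransferase DOT1L, and HMBA (hexamethylene bisacetamide) frees P-TEFb from the complex that inhibits it and is known to induce HEXIM1, a member of that complex. Each of the 8 groups had 2 libraries of poly(A) RNA, numbered 1 and 2, so every library came from shRNA-expressing cells and those without a compound had DMSO. The labels give neither dose nor treatment time, and they do not say whether a knockdown line was 1 clone or whether the 2 libraries of a group were separate cultures. A p-value below is thus a statement about the spread of these libraries, and that spread may be technical.

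Total counts ran from 13428893 to 21319666 over the 16 libraries. The results rest on 9 of them, namely the 8 numbered 2 and replicate 1 of shNELFE cells with both compounds, whose pairwise Pearson r of log2 CPM (counts per gene scaled to a common library size) across genes was 0.936 to 0.991. The other 7 libraries, all numbered 1, had an r of 0.735 to 0.805 with the 9 and of 0.741 to 0.992 with each other, so they hold more than 1 profile. In the 5 of them labelled shNELFE, HMBA or both, the levels of NELFE and HEXIM1 went against those labels. NELFE was 12.8 to 21.7 CPM in the shNELFE libraries of the 9 and 68.1 to 81.2 CPM in the shCTL libraries, whereas with all 16 scaled together the 7 had 81.6 to 269 CPM under either shRNA label. HEXIM1 was 333 to 386 CPM in the 5 libraries of the 9 with HMBA and 67.1 to 82.1 CPM in the 4 without, against 42.9 to 73.9 CPM in the 7. Of 9 colon epithelial markers 6 reached 1 CPM in the 9, with CDX1, VIL1 and LGR5 below 1 CPM, and with all 16 libraries scaled together their summed level was 4486 to 7513 CPM in the 9. That sum was 7013 to 32011 CPM in the 7, where CDX1 and LGR5 had 0 counts, and 7 mesenchymal markers summed to 35.1 to 102 CPM in the 9 and 12.6 to 7897 CPM in the 7. As 7 of the 8 groups have 1 library among the 9, each effect below comes from 1 model that adds HMBA, EPZ-5676 and shRNA on the log scale, tested with edgeR's quasi-likelihood test and Benjamini-Hochberg adjustment over all 14912 genes. Departures from additivity enter the residual spread of this model, and an SD over an arm includes the other factors.

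HMBA raised the mRNA of POLR2A, the catalytic subunit that carries the CTD, 6.02-fold, and that of GTF2B, the initiation factor TFIIB that places the polymerase on the promoter, 5.43-fold. The next members in size moved far less, and the only other member that changed at least 2-fold was CDK12, a CTD kinase of elongating polymerase, which fell 2.34-fold. Because POLR2A and GTF2B moved together and CDK12 moved the other way, their promoters are shown, with that of POLR2B, the subunit that forms the active site with POLR2A. The sequences are from RefSeq on GRCh38.p14 and run 5′ to 3′ on the gene's strand from 250 bases before the start to 50 after it, with capitals for the motifs found. They lie at chr17:7484116-7484415 (plus strand) for POLR2A, chr1:88891518-88891817 (minus) for GTF2B, chr17:39461236-39461535 (plus) for CDK12 and chr4:56978646-56978945 (plus) for POLR2B.
POLR2A promoter: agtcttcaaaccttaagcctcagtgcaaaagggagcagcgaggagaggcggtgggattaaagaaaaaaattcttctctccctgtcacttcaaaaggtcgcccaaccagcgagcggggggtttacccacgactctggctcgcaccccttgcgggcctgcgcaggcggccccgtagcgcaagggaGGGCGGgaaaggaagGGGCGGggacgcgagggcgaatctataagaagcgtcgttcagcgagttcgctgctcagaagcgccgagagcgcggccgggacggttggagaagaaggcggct
GTF2B promoter: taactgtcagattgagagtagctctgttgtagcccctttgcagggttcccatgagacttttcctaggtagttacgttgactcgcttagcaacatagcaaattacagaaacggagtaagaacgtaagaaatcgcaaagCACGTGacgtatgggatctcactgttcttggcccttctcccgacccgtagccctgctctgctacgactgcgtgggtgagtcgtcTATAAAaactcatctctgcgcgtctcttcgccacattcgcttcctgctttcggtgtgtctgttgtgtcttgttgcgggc
CDK12 promoter: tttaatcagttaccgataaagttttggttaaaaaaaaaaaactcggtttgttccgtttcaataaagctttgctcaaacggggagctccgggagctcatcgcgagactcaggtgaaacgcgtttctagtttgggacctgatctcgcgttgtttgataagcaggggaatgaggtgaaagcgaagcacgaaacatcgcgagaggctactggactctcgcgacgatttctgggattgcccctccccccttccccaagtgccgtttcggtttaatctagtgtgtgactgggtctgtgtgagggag
POLR2B promoter: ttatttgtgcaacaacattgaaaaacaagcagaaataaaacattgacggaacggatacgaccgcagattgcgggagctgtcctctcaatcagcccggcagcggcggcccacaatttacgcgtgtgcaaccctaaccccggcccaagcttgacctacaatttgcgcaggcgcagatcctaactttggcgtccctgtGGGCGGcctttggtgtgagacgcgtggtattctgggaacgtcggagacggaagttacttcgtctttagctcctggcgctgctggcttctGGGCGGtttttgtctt

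Counted from the start site, the GTF2B window held a TATA box (TATAAA) beginning at position -29 and an E-box (CACGTG) at -113. POLR2A had 2 GC boxes (GGGCGG), at -67 and -52, and POLR2B had 2, at -55 and 35. These positions use the RefSeq starts. In GENCODE 29 the genes GTF2B and POLR2B begin further upstream, at 88891944 and 56977722, outside the windows shown, so the positions depend on the annotation. None of the 8 motifs searched on both strands was found in the CDK12 window. A promoter entry was matched for 33 of the 40 members, with 39 windows since 6 members have 2 starts, and a gene was counted if any of its windows held the motif. GTF2B was the 1 member of the 33 with TATAAA, which 14.0% of all 27305 genes in the table hold (11.5% of 35116 single windows). GGGCGG was in 23 of the 33 and in 48.3% of all genes, and the ETS core CCGGAAG in 11 of the 33 and 12.2% of all. CCAAT was found in 6 members (39.7% of all genes), CACGTG in 3 (8.77%) and the heat shock core GAANNTTC in 2 (8.21%). The AP-1 letters TGANTCA and the cyclic AMP element TGACGTCA were in 0 of the 33, against 9.37% and 2.25% of all genes. POLR2A and GTF2B thus shared no motif among those searched, and such matches describe the letters of a window and nothing about binding.

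Over the whole set, HMBA changed 25 of the 40 members, with 16 higher and 9 lower at an adjusted p under 0.05. The same test called 63.0% of all 14912 genes, so the members' share of 62.5% was near the background. Higher calls were 31.0% of all genes and lower calls 32.0%. The median log2 fold change was 0.14 over the members and 0.02 over all genes. Changes of at least 2-fold were rare in the set, with 2 members higher and 1 lower, whereas 11.4% of all genes were called at least 2-fold higher and 13.6% at least 2-fold lower. The libraries with HMBA did not overlap those without it in 12 members that were higher (23.3% of all genes) and 8 that were lower (26.7%). On library totals without TMM scaling (the trimmed mean scaling of edgeR), the median of all genes moved to -0.24 and that of the members to -0.13. There 8 members were called higher and 14 lower, and 61.9% of all genes were called, 18.7% higher and 43.2% lower. Higher genes thus made up 30.2% of all calls, against 49.3% with TMM. On those totals 17 members passed in the same direction as with TMM, 8 of them higher and 9 lower. Levels are shares of the counted RNA, and in bulk RNA fewer cells of a type and less RNA per cell cannot be told apart.

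**Figure D1:**
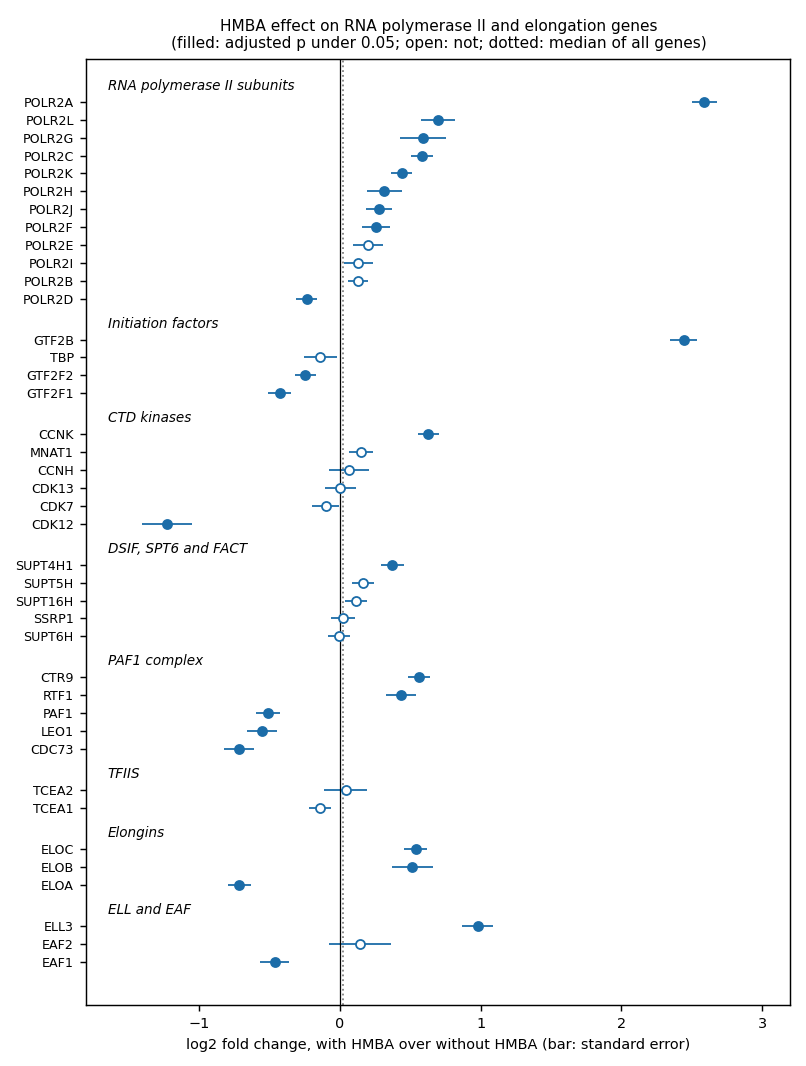
Log2 fold change with HMBA over without HMBA for each of the 40 members, grouped by role, from the additive fit of 9 libraries. Points are estimates, bars are standard errors, filled points had an adjusted p under 0.05, and the dotted line is the median of all genes. POLR2A (2.59) and GTF2B (2.44) lie far to the right of all other members, and CDK12 (-1.23) lies farthest to the left.

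POLR2A (ENSG00000181222, hg38 chr17:7484366-7514616, plus strand) stood at 1840 and 2127 CPM in shNELFE cells with both compounds, 2341 in shCTL cells with both, 2094 in shNELFE cells with HMBA and 2181 in shCTL cells with HMBA. Without HMBA it stood at 353 CPM in shNELFE cells and 355 in shCTL cells with EPZ-5676, and 333 in shNELFE and 390.2 in shCTL cells with DMSO. Every library with HMBA was thus far above every library without it, whichever shRNA or second compound was present. The mean was 2116 ± 182 CPM with HMBA (SD, n = 5) and 358 ± 23.9 CPM without (n = 4), with a log2 fold change of 2.59 (SE 0.088, edgeR adjusted p 7.74e-09). Leaving out any 1 of the 9 libraries kept the log2 fold change between 2.55 and 2.62.

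The other 11 subunits moved by less than 1 on the log2 scale. POLR2L, a small subunit shared by all nuclear RNA polymerases, had 0.70, and its levels are given with the shRNA results below. POLR2G, part of the stalk that binds the emerging RNA, had 114 and 65.7 CPM in the shNELFE libraries with both compounds, 56.3 in shCTL with both, 74.9 in shNELFE with HMBA and 62.3 in shCTL with HMBA. Its levels without HMBA were 48.2 and 44.4 CPM in shNELFE and shCTL cells with EPZ-5676, and 54.9 and 44.5 CPM in shNELFE and shCTL cells with DMSO. The arms of POLR2G did not overlap, but replicate 1 of shNELFE with both compounds stood above the rest. Its log2 fold change was 0.59 (SE 0.16, edgeR adjusted p 0.00776), and 0.44 without that library. POLR2G did not pass on unscaled totals (0.32, adjusted p 0.0525). POLR2C, which pairs with POLR2J in the assembly platform of the enzyme, had 0.58, and POLR2J itself 0.28. The shared subunits POLR2K (0.44), POLR2H (0.32) and POLR2F (0.26) also passed, and POLR2E (0.20) did not. POLR2D, the partner of POLR2G in the stalk, was the 1 subunit called lower, at -0.23. POLR2B (0.13) and POLR2I (0.13), which helps the enzyme proofread, did not pass. With TMM 8 of the 12 subunits were called higher and 1 lower, beside 31.0% and 32.0% of all genes. On unscaled totals 3 were called higher and 1 lower, beside 18.7% and 43.2% of all genes. POLR2B, POLR2E, POLR2F and POLR2I changed sign there. Reads of POLR2J may be shared with its near-identical copies POLR2J2 and POLR2J3.

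Levels of different subunits were compared per kilobase of annotated exon. With HMBA, POLR2A stood at 253 ± 21.7 CPM per kb (SD, n = 5), the highest of the 40 members, and POLR2B at 45.9 ± 2.78. Without HMBA POLR2A was at 42.8 ± 2.86 CPM per kb (n = 4), at rank 5 of the 40, and POLR2B at 42.0 ± 3.64. POLR2A thus stood far above POLR2B with HMBA and beside it without. The per-kb ratio of POLR2A to POLR2B was 4.56 to 6.37 in the 5 libraries with HMBA and 0.858 to 1.15 in the 4 without. Against the median of the other 11 subunits, POLR2A was 6.74 ± 0.925 times as high with HMBA and 1.54 ± 0.143 times without. At the low end, POLR2F had 6.29 ± 0.962 CPM per kb with HMBA and 5.19 ± 0.311 without, on a gene model of 7.04 kb of exon. POLR2F was the lowest subunit in both arms, and CPM per kb depends on which annotated exons the cells use.

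**Figure D2:**
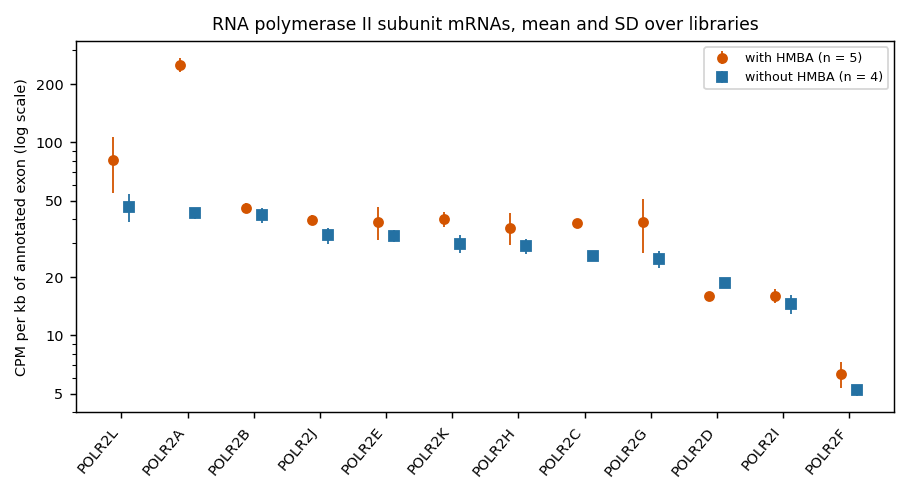
CPM per kb of annotated exon (log scale) for the 12 RNA polymerase II subunit genes, as mean and SD over 5 libraries with HMBA (circles) and 4 without (squares). Genes run from the highest to the lowest level without HMBA. POLR2A stands at 253 with HMBA and 42.8 without, while POLR2B stands at 45.9 and 42.0.

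Among the initiation factors the GTF2B gene (ENSG00000137947, chr1:88852932-88891944, minus strand) had 228 and 183 CPM in shNELFE cells with both compounds, 185 in shCTL cells with both, 209 in shNELFE with HMBA and 193 in shCTL with HMBA. Without HMBA it stood at 36.6 CPM in shNELFE cells and 33.8 in shCTL cells with EPZ-5676, and 40.2 in shNELFE and 37.2 in shCTL cells with DMSO. As for POLR2A, all 5 libraries with HMBA were well above all 4 without. The log2 fold change was 2.44 (SE 0.094, edgeR adjusted p 1.37e-08), and the per-kb rank of GTF2B among the 40 was 3 with HMBA and 25 without. The subunits of TFIIF, which escorts the polymerase to the promoter, were called lower, GTF2F1 with a log2 fold change of -0.43 and GTF2F2 with -0.24. TBP, which binds the TATA box, had -0.14 (adjusted p 0.329) and did not pass, but did on unscaled totals (-0.40).

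CDK12 (ENSG00000167258, chr17:39461511-39564907, plus strand) phosphorylates the CTD during elongation together with cyclin K, the product of CCNK. CDK12 was 32.6 and 62.4 CPM in shNELFE cells with both compounds, 73.7 in shCTL cells with both, 45.5 in shNELFE with HMBA and 67.1 in shCTL with HMBA. Without HMBA it stood at 138 CPM in shNELFE cells and 126 in shCTL cells with EPZ-5676, and 128 in shNELFE and 139 in shCTL cells with DMSO. All libraries with HMBA were lower than all without, and the lowest was replicate 1 of shNELFE with both compounds. The log2 fold change was -1.23 (SE 0.18, edgeR adjusted p 0.000127), and -1.10 without that library.

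CCNK moved the other way from its kinase. It stood at 98.3 and 101 CPM in shNELFE cells with both compounds, 111 in shCTL with both, 99.8 in shNELFE with HMBA and 105 in shCTL with HMBA. Its levels without HMBA were close together, at 68.8 and 65.8 CPM in shNELFE and shCTL cells with EPZ-5676 and 67.1 and 66.3 CPM in shNELFE and shCTL cells with DMSO. The arms did not overlap, and the log2 fold change was 0.63 (SE 0.075, edgeR adjusted p 3.11e-05). Exons of CCNK overlap those of CCDC85C on the opposite strand, and whether counting used strand is not known, so its level is uncertain. CDK13, the paralog of CDK12, had 0.002 and did not pass. The kinase module of TFIIH, which opens the CTD phosphorylation cycle, did not pass in any subunit, with CDK7 at -0.10, CCNH at 0.06 and MNAT1 at 0.15. On unscaled totals CDK13, CCNH and MNAT1 changed sign and CDK7 was called lower (-0.37).

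**Figure D3:**
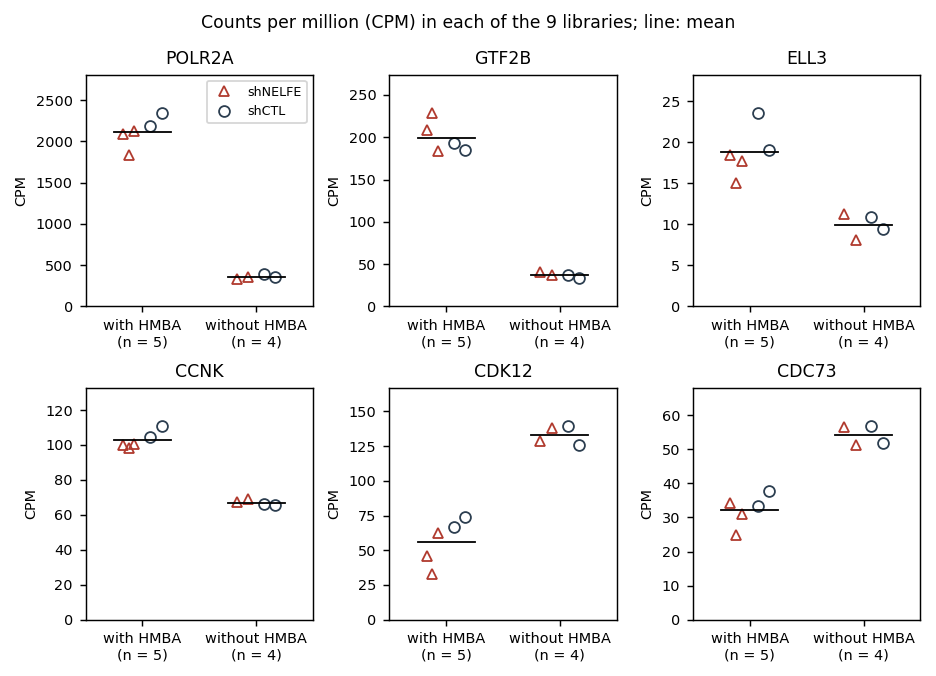
CPM in each of the 9 libraries for POLR2A, GTF2B, ELL3, CCNK, CDK12 and CDC73, with HMBA on the left and without on the right of each panel. Triangles are shNELFE and circles shCTL libraries, and the line is the mean of the arm. In these 6 genes the arms do not overlap, and POLR2A averaged 2116 CPM with HMBA and 358 CPM without.

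The PAF1 complex rides on elongating polymerase and is needed for several histone modifications. Its 5 subunits among the members all passed, as did 63.0% of all genes, but they did not move together. CDC73, the subunit known as parafibromin, had 24.8 and 31.0 CPM in shNELFE with both compounds, 37.7 in shCTL with both, 34.3 in shNELFE with HMBA and 33.4 in shCTL with HMBA. Without HMBA it stood at 51.3 CPM in shNELFE cells and 51.7 in shCTL cells with EPZ-5676, and 56.6 in shNELFE and 56.7 in shCTL cells with DMSO. The arms stood clear of each other, with a log2 fold change of -0.72 (SE 0.11, edgeR adjusted p 0.000157).

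LEO1, a subunit that binds RNA and histones, was 29.9 and 31.3 CPM in shNELFE cells with both compounds, 38.1 in shCTL with both, 26.0 in shNELFE with HMBA and 32.5 in shCTL with HMBA. The 4 libraries without HMBA had 51.1 and 46.2 CPM in shNELFE and shCTL cells with EPZ-5676, and 47.2 and 40.2 CPM in shNELFE and shCTL cells with DMSO. LEO1 was lower in every library with HMBA, though the highest of these and the lowest without HMBA were close, and its log2 fold change was -0.55 (SE 0.11, edgeR adjusted p 0.00104). PAF1 itself, the scaffold that gives the complex its name, was 49.9 and 47.9 CPM in shNELFE with both compounds, 48.9 in shCTL with both, 54.3 in shNELFE with HMBA and 48.2 in shCTL with HMBA. Levels of PAF1 without HMBA were 79.4 and 71.3 CPM in shNELFE and shCTL with EPZ-5676, and 68.3 and 65.2 CPM in shNELFE and shCTL with DMSO. The arms of PAF1 did not overlap, and the log2 fold change was -0.51 (SE 0.084, edgeR adjusted p 0.000314). CTR9, the large scaffold subunit, was higher with HMBA, at 232 ± 9.20 CPM (SD, n = 5) against 157 ± 10.6 without (n = 4), a log2 fold change of 0.56. RTF1, the subunit that stimulates histone H2B ubiquitination, was higher as well, with 0.43, but did not pass on unscaled totals (0.17).

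Of the elongins, ELOA, the transcriptionally active subunit, fell while its partners ELOB and ELOC rose. ELOA was 52.2 and 63.6 CPM in shNELFE with both compounds, 59.3 in shCTL with both, 58.1 in shNELFE with HMBA and 51.3 in shCTL with HMBA. The libraries without HMBA held 101 CPM in shNELFE and 91.2 in shCTL cells with EPZ-5676, and 90.9 in shNELFE and 89.1 in shCTL cells with DMSO. The arms were well apart, with a log2 fold change of -0.71 (SE 0.085, edgeR adjusted p 3.09e-05). The gene ELOA-AS1 on the opposite strand overlaps exons of ELOA, so the level of ELOA is uncertain. ELOB and ELOC, which also serve in ubiquitin ligases, had 0.51 and 0.54, and ELOB did not pass on unscaled totals (0.24). Exons of ELOB overlap SRRM2 on the opposite strand, so its level is uncertain.

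ELL3 belongs to a family that keeps the polymerase from stalling. It was a low-level gene, with 15.1 and 17.7 CPM in shNELFE with both compounds, 19.0 in shCTL with both, 18.4 in shNELFE with HMBA and 23.5 in shCTL with HMBA. Without HMBA it had 8.03 CPM in shNELFE and 9.40 in shCTL cells with EPZ-5676, and 11.2 in shNELFE and 10.9 in shCTL cells with DMSO. The arms did not overlap, and the log2 fold change was 0.98 (SE 0.11, edgeR adjusted p 1.68e-05), just under 2-fold. Exons of ELL3 overlap another annotated gene on the same strand, so its level is uncertain. EAF1, an ELL-binding factor, was 43.1 and 58.4 CPM in shNELFE with both compounds, 72.9 in shCTL with both, 55.5 in shNELFE with HMBA and 65.6 in shCTL with HMBA. The 4 libraries without HMBA were at 79.5 and 87.0 CPM in shNELFE and shCTL with EPZ-5676, and 78.0 and 88.0 CPM in shNELFE and shCTL with DMSO. EAF1 was lower in all libraries with HMBA, with a log2 fold change of -0.46 (SE 0.11, edgeR adjusted p 0.00274), and its exons overlap the antisense gene EAF1-AS1. EAF2, its paralog, was at 1.35 to 2.33 CPM with HMBA and 1.31 to 2.52 CPM without, did not pass and changed sign on unscaled totals.

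The remaining elongation factors moved little. SUPT4H1, the small subunit of DSIF, had a log2 fold change of 0.37 and passed, while its partner SUPT5H (0.16) did not. SUPT4H1 did not pass on unscaled totals, and its exons overlap another gene on the same strand. SUPT6H, the histone chaperone SPT6, had -0.01, and the FACT subunits SUPT16H and SSRP1, which handle nucleosomes in front of the polymerase, had 0.11 and 0.02. The TFIIS genes TCEA1 and TCEA2, whose products rescue backtracked polymerase, had -0.14 and 0.04. None of these 5 passed with TMM scaling, and SUPT5H, SUPT6H, SUPT16H, SSRP1 and TCEA2 changed sign on unscaled totals, where SUPT6H (-0.27), SSRP1 (-0.24) and TCEA1 (-0.41) were called lower on unscaled totals.

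Several properties of the libraries moved with HMBA. Mitochondrially encoded genes took 8.87% to 12.2% of counts with HMBA and 6.12% to 6.90% without. The 7 mesenchymal markers summed to 63.4 to 105 CPM with HMBA and 34.9 to 66.9 CPM without, and the 9 epithelial markers to 4591 to 7753 CPM and 4466 to 5979 CPM in the same order. Their part in the results was not tested. Across the 40 members, the HMBA log2 fold change had a Pearson r of -0.17 and a Spearman rho of -0.25 with annotated exon length, given as a description.

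Genes of neighbouring pathways were counted in the same fit, which called 31.0% of all genes higher and 32.0% lower. On unscaled totals the shares of all genes were 18.7% higher and 43.2% lower. Of 14 genes of RNA polymerase I, which makes ribosomal RNA, HMBA lowered 12 and raised 0, with a median log2 fold change of -0.72. POLR1B, its second-largest subunit, was 33.7 ± 4.25 CPM with HMBA (SD, n = 5) and 148 ± 12.9 without (n = 4), and TAF1A, a subunit of its promoter selectivity factor, 4.96 ± 0.595 against 13.3 ± 1.19. Of 21 genes of RNA polymerase III, the enzyme of transfer RNA and other small RNAs, 16 were lower and 1 higher (median -0.58), including the subunit POLR3C (-1.48). On unscaled totals 13 were lower and 0 higher for polymerase I, and 19 lower and 1 higher for polymerase III. Those totals moved the median of all genes from 0.02 to -0.24, so they could not test the direction of lists that were already lower. The list of pausing, P-TEFb and super elongation genes split, with 7 higher and 8 lower of 18, among them HEXIM1 (2.35) and the NELF subunit NELFA (-1.33). On unscaled totals this list had 5 higher and 10 lower.

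The other lists were mixed, beside 31.0% of all genes higher and 32.0% lower, or 18.7% and 43.2% on unscaled totals. The move towards lower calls on unscaled totals was thus also seen over all genes. Among 27 other initiation factors 12 were higher and 10 lower, and both examples, TAF9 (1.79) and TAF12 (1.12), belong to TFIID and are shared with histone acetylase complexes. On unscaled totals that list had 5 higher and 12 lower. Of 32 Mediator genes 7 were higher and 14 lower, among them MED26, at 51.6 ± 6.02 CPM with HMBA and 18.0 ± 1.07 without, and MED8, at 8.23 ± 1.08 and 27.4 ± 1.58 CPM in the same order. On unscaled totals Mediator had 5 higher and 22 lower. Of 14 other elongation factors tested 2 were higher and 7 lower, with IWS1, a partner of SPT6, at -1.48, and 1 was higher and 8 lower on unscaled totals. Among 10 CTD phosphatase genes 3 were higher and 6 lower, with the phosphatase-targeting subunit PPP1R10 at 1.40 and CTDSP1 at -2.12, and 1 was higher and 6 lower on unscaled totals. Integrator, which cleaves nascent RNA, had 1 higher and 6 lower of 14, with INTS7 at -0.97 and INTS14 at -0.61, and 0 higher and 8 lower on unscaled totals. The cleavage and termination list had 4 higher and 8 lower of 18, with PCF11 at 1.78 and CSTF1 at -1.09, and 3 higher and 11 lower on unscaled totals. Of 15 polymerase II paralogs and assembly factors 5 were higher and 3 lower, with POLR2J4 at 1.97 and POLR2M at -0.96. On unscaled totals this last list had 1 higher and 7 lower. POLR2J4 may share reads with the other POLR2J copies.

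The EPZ-5676 comparison asks whether these mRNAs depend on DOT1L, which methylates histone H3 within genes that are being transcribed. No member passed (0 of 40 with edgeR, with DESeq2 and with limma-voom), in a comparison where edgeR called 0.201% of all genes, DESeq2 1.58% and limma-voom 0.181%. An unadjusted p under 0.05 was found for 3 of 40 members and for 11.4% of all genes in the edgeR fit. CDK7 averaged 44.6 ± 3.05 CPM with EPZ-5676 (SD, n = 5) and 55.9 ± 6.05 CPM without (n = 4), a log2 fold change of -0.30 (SE 0.097, adjusted p 0.257), and the arms overlapped. The others were ELL3 with -0.29 (adjusted p 0.332) and POLR2K with -0.17 (adjusted p 0.438). POLR2A (-0.01, SE 0.081) and GTF2B (-0.07, SE 0.088) had values within their standard errors. Without replicate 1 of shNELFE with both compounds, CDK7 passed (-0.33, edgeR adjusted p 0.0366) in a fit that called 3.8% of all genes.

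Knockdown of NELFE tests whether loss of a pausing factor alters the mRNAs of the machinery it acts on. Of the 40 members 1 passed, POLR2L, which was higher, and 2.37% of all genes did, 0.764% higher. POLR2L (ENSG00000177700, chr11:837356-842545, minus strand) had 132 and 97.2 CPM in shNELFE cells with both compounds, against 66.9 CPM in shCTL cells with both. With HMBA alone shNELFE cells had 108 CPM and shCTL cells 58.8, with EPZ-5676 alone 62.5 in shNELFE and 49.1 in shCTL, and with DMSO 56.9 in shNELFE and 43.1 in shCTL. Under each treatment shNELFE was above shCTL, although the arms overlapped because HMBA raised POLR2L too. The shRNA log2 fold change was 0.62 (SE 0.12, edgeR adjusted p 0.0265), and the HMBA log2 fold change was 0.70 (SE 0.12, adjusted p 0.000491). The call for the shRNA was lost when any 1 of 7 of the 9 libraries was left out, with values of 0.55 to 0.69 and adjusted p of up to 0.155. Exons of POLR2L overlap CD151 on the opposite strand, so its level is uncertain.

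Other members had an unadjusted p under 0.05 for the shRNA without passing, 8 of 40 in all with POLR2L, near the 19.4% of all genes that had one. They included POLR2E (0.31), which was 194 ± 32.7 CPM in shNELFE (SD, n = 5) and 154 ± 3.21 CPM in shCTL (n = 4) with no overlap, and POLR2G (0.39), GTF2F2 (0.26) and EAF1 (-0.28). Without replicate 1 of shNELFE with both compounds these 4 and POLR2L passed, with 4 higher and 1 lower, where 13.1% of all genes were called, 5.62% higher and 7.48% lower. In that fit POLR2E had 0.24, POLR2G 0.23, GTF2F2 0.24 and EAF1 -0.21. DESeq2 on the 9 libraries called 2 members, POLR2L and GTF2F2, and 6.16% of all genes. POLR2A (-0.13, SE 0.081, adjusted p 0.391) and CDK12 (-0.31, SE 0.18, adjusted p 0.371) did not pass.

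**Figure D4:**
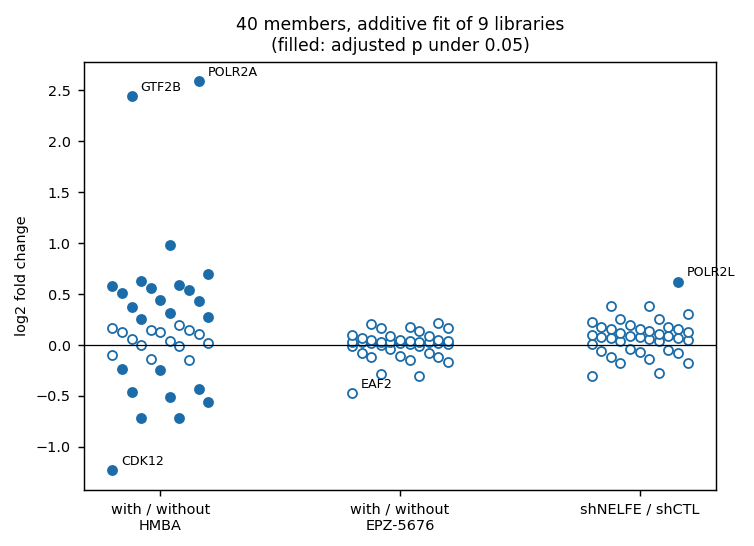
Log2 fold changes of the 40 members for HMBA, EPZ-5676 and the NELFE shRNA in the additive fit of 9 libraries. Each point is 1 member and filled points had an adjusted p under 0.05. The spread is -1.23 to 2.59 for HMBA, -0.47 to 0.22 for EPZ-5676 and -0.31 to 0.62 for the shRNA.

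Whether 1 factor changed the effect of another was tested with a product term. For HMBA by shRNA, HMBA by EPZ-5676 and EPZ-5676 by shRNA, edgeR called 0 of 40 members each, and 0.0134%, 0.0% and 0.0% of all genes. An unadjusted p under 0.05 was found for 1, 0 and 0 members in that order, the 1 being LEO1 for HMBA by shRNA, and DESeq2 also called 0 members in each, with 0.154%, 0.00671% and 0.0201% of all genes. Fitted within shNELFE cells HMBA changed 21 members (52.6% of all genes), and within shCTL cells 16 (44.8%), but these counts were not shown to differ since no product term passed. LEO1 had an HMBA log2 fold change of -0.29 within shCTL cells and -0.78 within shNELFE cells. Of the members called for HMBA above, LEO1, EAF1, ELOB, RTF1, GTF2F2, POLR2D, POLR2F, POLR2G and POLR2H did not pass within shCTL cells. POLR2D, POLR2H, POLR2J and GTF2F2 did not pass within shNELFE cells.

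The 2 libraries of shNELFE cells with both compounds are the 1 pair of libraries of the same group among the 9. Their ratio, replicate 1 over replicate 2, ran from 0.523 for CDK12 to 1.74 for POLR2G over the 40 members. CCNH (1.73), ELOB (1.60) and POLR2H (1.54) were also higher in replicate 1, and RTF1 (0.712) and EAF1 (0.739) lower. Across the members this ratio had a Pearson r of -0.42 and a Spearman rho of -0.45 with annotated exon length, a description over genes in 1 pair of libraries. POLR2A (0.865) and GTF2B (1.25) differed between these libraries far less than between the HMBA arms.

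In the 7 libraries that stand apart, which do not form 1 profile, the levels of POLR2A and GTF2B overlapped between the libraries labelled with and without HMBA. With all 16 libraries scaled together, POLR2A was 315 to 395 CPM in the 3 of them labelled with HMBA and 309 to 477 CPM in the 4 labelled without. GTF2B was 11.1 to 21.4 CPM in the 7, with the 3 labelled HMBA inside this range, below all 9 libraries described above (33.0 to 221 CPM). Of the members, 4 were higher in every one of the 7 than in any of the 9 (POLR2I, SUPT4H1, PAF1 and TCEA2) and 9 were lower (POLR2B, GTF2B, GTF2F2, CDK7, CCNH, SUPT16H, CTR9, TCEA1 and ELOC). CTR9, for instance, was 15.8 to 33.8 CPM in the 7 and 142 to 241 CPM in the 9. How many of all genes separate the 7 from the 9 in this way was not counted. These member counts therefore describe the libraries and are not a result about this set of genes. With all 16 libraries in the additive fit, the HMBA log2 fold change was 1.99 for POLR2A (edgeR adjusted p 0.196) and 2.30 for GTF2B (0.228), and 0 of the 40 members and 0.0% of all genes passed, as for the other 2 effects. An unadjusted p under 0.05 was found for 3 members and 10.4% of all genes for HMBA in that fit. EPZ-5676 had 0 members and 0.568% of all genes, and the shRNA 0 members and 2.52% of all genes. The results above therefore hold for the 9 libraries, and whether the 7 carry the conditions on their labels was not tested.

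**Figure D5:**
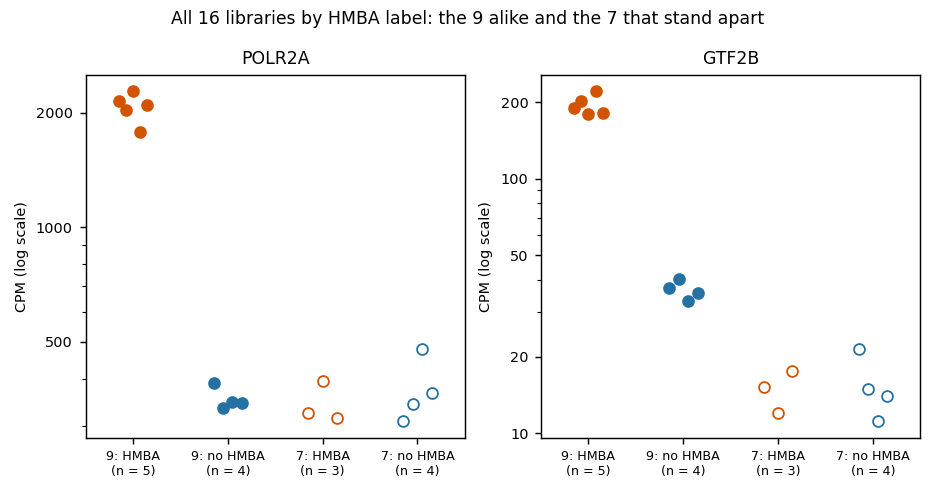
CPM (log scale) of POLR2A and GTF2B in all 16 libraries, split by the HMBA label, for the 9 libraries that resemble each other (filled) and the 7 that stand apart (open). In the 9, the 5 libraries with HMBA lie above the 4 without for both genes, and in the 7 the labelled arms overlap, at 315 to 395 CPM with HMBA and 309 to 477 CPM without for POLR2A.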

How the data were processed

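The authors deposited raw counts of reads per gene for 16 libraries. HTSeq 0.6.1p1, edgeR, STAR 2.4.0b and Cufflinks 2.1.1 are named, with hg38, in the submitters' processing notes, with the role of each not given in the sources used here, nor the annotation release or strand setting. Per the labels' protocols, libraries came from a TruSeq stranded mRNA kit. The members and gene lists were chosen with earlier results of these data known, and so was the set of 9 libraries.

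Counts were fitted in edgeR 4.0.16 (R 4.3.3, limma 3.58.1) with additive terms, TMM scaling and filterByExpr, leaving 14912 genes and 5 residual degrees of freedom. Product terms were added singly. CPM are scaled by TMM over the 9 libraries, or over all 16 where stated. Coordinates and exon lengths come from GENCODE 29. Exons also overlap another annotated gene in POLR2B, POLR2C, POLR2D, POLR2E, POLR2F, POLR2I, POLR2J, CCNH, MNAT1, CDK13, SUPT6H, SSRP1, CTR9, LEO1 and CDC73. Their levels are uncertain to that extent. Values in every library are given for the 6 largest rises and 6 largest falls with HMBA among called members and for called members of other effects, and 2 genes a list were chosen by smallest p, of which some are not reported here. A floor of 3 counts is 0.168 to 0.223 CPM in the 9 libraries, for counting error only. Alternatives were RLE scaling, unscaled totals, no filter, DESeq2 1.42.0, limma-voom, group means, the replicate block, other library sets and leaving out each library. The code was tested on simulated data. Libraries with the same number deviated together in most pairs of groups, with r over 0.1 in 24 of 28 (median 0.431, range 0.066 to 0.960). The main fit did not use the number. Among the 9 libraries only replicate 1 of shNELFE with both compounds is numbered 1, so a replicate block absorbs that library.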

Additional observations from a re-analysis of the deposited data

Results flagged for a closer look

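TCEA2, the tissue-restricted paralog of the TFIIS gene TCEA1, was at a far higher level in some of the 7 libraries left out of the comparisons than in any of the 9. Its highest level there was 78.5 CPM, against a highest of 9.64 CPM in the 9, which is 8.15 times as high. The 3 of the 7 labelled with HMBA had 17.8 to 75.1 CPM and the 4 labelled without had 18.1 to 78.5 CPM.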

How the results depend on the processing

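The counts for HMBA rest on the choice of libraries. With 16 libraries, with or without the replicate block, and with the 8 numbered 1, a set chosen after seeing the data, edgeR called 0 members and 0 genes for HMBA, 0 genes for EPZ-5676 and 0 members and 0 genes for the shRNA (unadjusted p under 0.05 for HMBA in 3, 6 and 0 members and 1641, 2874 and 3 genes). A fit of group means, whose spread comes from 1 pair of libraries, called 13 members and 6438 genes for HMBA (43.2% of all), and for the shRNA 0 members (1 with unadjusted p under 0.05) and 104 genes. Within shCTL cells 16 members passed for HMBA (44.8% of all genes).

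The 8 libraries numbered 2 gave 1 member and 563 genes for EPZ-5676, 5 members and 1940 genes for the shRNA, 36 genes for HMBA by shRNA and 5 for HMBA by EPZ-5676. The replicate block in the 9 gave nearly the same (EPZ-5676 1 and 571, shRNA 5 and 1945). Only 1 of the 9 is numbered 1, so the block absorbs that library and is no separate check. Correlations of group pairs ran from 0.066 to 0.960 (median 0.431), with 24 of 28 over 0.1. Without the filter 248 genes passed for EPZ-5676, 767 for the shRNA, 75 for HMBA by shRNA, 5 for HMBA by EPZ-5676 and 4 for EPZ-5676 by shRNA. DESeq2 gave 235, 919, 23, 1 and 3 in that order, and 2 members for the shRNA. Leaving out a library gave 20 to 26 members and 8035 to 10443 genes for HMBA, 0 to 1 members and 1 to 563 genes for EPZ-5676, 0 to 5 members and 66 to 1940 genes for the shRNA, 0 to 36 genes for HMBA by shRNA and 0 to 5 for HMBA by EPZ-5676. The highest counts of each came without replicate 1 of shNELFE with both compounds.

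Signs reversed in the 8 libraries numbered 1 for CCNK (-0.16), POLR2G (-0.13), CDC73 (0.17), LEO1 (0.62) and the shRNA effect on POLR2L (-0.49), and in the 16 for LEO1 with the block (0.050) and POLR2L without it (-0.075). The cause was not tested. Depth limits EAF2, at 1.31 to 2.52 CPM in the 9 libraries.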
